A study of Mus musculus with 8 samples.

Results

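The transcripts described here come from 10 genes of the NF-kappaB system in cultured mouse eosinophils, granule-bearing leukocytes of type 2 immunity. They are 4 subunit genes (Nfkb1, Nfkb2, Rel and Relb), 3 inhibitors (Nfkbia, Nfkbie and Tnfaip3), 2 kinases (Ikbke and Map3k8) and the TNF-induced gene Tnfaip2. They were chosen by symbol, with earlier results of these data known. Each matched 1 Ensembl ID, so 10 of the 15917 genes in the count table were taken, and all 10 passed the filter on low counts. Gene positions are from GENCODE M21 on mm10.

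Eosinophils from the blood of IL-5 transgenic mice (line NJ.1638, strain C57BL/6, with the genotype labelled WT) were enriched by removing CD90-positive and B220-positive cells and kept in culture for 18 h. Each of the 4 groups had 2 libraries. In the first experiment E1 cells received IFN-γ and TNF-α (15 ng/mL) and CN cells received no cytokine. In the second experiment E2 cells received IL-5, GM-CSF and IL-4 (10 ng/mL each) with IL-33 (30 ng/mL), and E0 cells received IL-5 alone (10 ng/mL). All cells thus came from animals with transgenic IL-5, also those cultured without it. Whether replicates came from separate animals or separate cultures is not said in the labels, and sex-linked transcripts bearing on this are given below.

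Levels below are in CPM, read counts scaled to a common library size with TMM factors. Library totals ran from 60809057 to 95065752 reads, and the member with the fewest reads, Map3k8, had at least 202 in each library. Replicates ranked the genes alike (Spearman correlation across genes 0.992 to 0.995 in the 4 groups). Ddx3y, a Y-linked gene, stood at 62.5 to 95.6 CPM in replicate 1 of each group and at 0 in replicate 2. Xist stood at 796 to 1142 CPM in replicate 2 and at most at 0.193 CPM in replicate 1. The 2 libraries of a group were thus not cultures of the same animal or pool, and the spread between replicates includes a difference of sex. The eosinophil label was checked on 10 markers, all of which were detected in every group. Their summed level was 5584 to 6381 CPM in E1 and 7168 to 7397 CPM in CN, and 4135 to 4176 CPM in E2 and 6551 to 6643 CPM in E0. In E2 versus E0, 8 of the 10 were called lower and 1 higher. Of all genes tested, 17.0% were called higher and 18.5% lower in E2 versus E0, and 9.19% and 8.08% in E1 versus CN. Of 9 measured monocyte, macrophage and dendritic cell markers, 6 were called higher and 1 lower in E1 versus CN, and 5 higher and 4 lower in E2 versus E0. Their summed level was 4639 to 4974 CPM in E1 and 523 to 567 CPM in CN, of which Ly6c2 alone averaged 3999 CPM in E1 and 99.0 CPM in CN. It was 829 to 874 CPM in E2 and 477 to 507 CPM in E0. The 8 measured neutrophil markers summed to 542 to 885 CPM in E1 and 1512 to 1764 CPM in CN. They summed to 862 to 1242 CPM in E2 and 1345 to 2194 CPM in E0. In E1 versus CN, 4 of them were called lower and 1 higher, Ly6g, with 63.2 CPM in E1 and 6.83 CPM in CN. Of the 8, 2 were called lower and none higher in E2 versus E0. T cell, B cell, NK cell and basophil or mast cell markers each summed to at most 39.2 CPM in any library, and no measured marker was below 0.1 CPM in both libraries of a group. The part of other cells in the changes below was not tested. In bulk RNA, fewer cells of a type and less RNA per cell cannot be told apart.

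NF-kappaB proteins are pairs of subunits. Nfkb1 and Nfkb2 encode the precursors p105 and p100, which are processed to p50 and p52, while Rel, Relb and Rela encode the subunits with activation domains. In resting cells inhibitors of the IkB family hold the pairs in the cytoplasm. TNF receptors and receptors of the IL-1 family, to which the IL-33 receptor belongs, activate the kinases that mark IkB for destruction, and the freed subunits then switch on genes that include their own inhibitors. This negative feedback is a textbook feature of the pathway in leukocytes.

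Promoter sequences are shown for 7 members because the kappaB consensus, the DNA word that these subunits bind, can be read in them directly. RefSeq promoters (GRCm38.p6, 300 bases from 250 before to 50 after a start site) were searched for Nfkb2, Rel, Nfkbia, Nfkbie, Tnfaip3, Tnfaip2 and Ikbke. None was held for Nfkb1 and Relb. The promoter of Map3k8 was left out of the search of members and is not reported here. A match to the consensus on either strand was found in 6 of the 7 genes searched and in 8 of their 10 windows, some of which overlap each other. Of all 32851 promoter windows, 8.46% held a match. The stretches below run 130 bases up to the start site, 5′ to 3′ on the strand of the gene, from the most upstream of the start sites held for each gene, with kappaB matches in capitals. They lie at Nfkb2 (chr19:46304607-46304736, plus strand), Rel (chr11:23770970-23771099, minus strand), Nfkbia (chr12:55492648-55492777, minus strand), Nfkbie (chr17:45555570-45555699, plus strand), Tnfaip3 (chr10:19015411-19015540, minus strand), Tnfaip2 (chr12:111442531-111442660, plus strand), Ikbke (chr1:131279564-131279693, minus strand).
Nfkb2: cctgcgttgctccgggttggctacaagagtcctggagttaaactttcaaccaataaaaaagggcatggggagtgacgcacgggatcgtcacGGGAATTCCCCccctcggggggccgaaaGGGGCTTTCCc
Rel: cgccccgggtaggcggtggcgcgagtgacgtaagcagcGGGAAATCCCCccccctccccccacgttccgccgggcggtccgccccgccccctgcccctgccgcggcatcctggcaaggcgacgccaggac
Nfkbia: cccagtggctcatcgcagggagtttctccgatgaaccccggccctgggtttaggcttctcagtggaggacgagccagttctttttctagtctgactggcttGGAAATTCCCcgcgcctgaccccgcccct
Nfkbie: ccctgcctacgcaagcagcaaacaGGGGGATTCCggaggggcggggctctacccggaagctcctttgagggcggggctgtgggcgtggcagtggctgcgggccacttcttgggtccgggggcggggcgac
Tnfaip3: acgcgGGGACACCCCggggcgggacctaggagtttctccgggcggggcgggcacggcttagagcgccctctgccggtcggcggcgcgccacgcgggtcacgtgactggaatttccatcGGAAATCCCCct
Tnfaip2: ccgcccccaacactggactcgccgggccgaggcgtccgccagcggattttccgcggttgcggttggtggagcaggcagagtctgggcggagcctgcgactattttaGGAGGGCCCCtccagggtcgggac
Ikbke: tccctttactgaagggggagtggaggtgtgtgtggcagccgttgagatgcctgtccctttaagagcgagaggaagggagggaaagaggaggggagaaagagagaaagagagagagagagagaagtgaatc
Nfkb2 carried overlapping matches at bases -39 and -38 and a further match at -11, counted from the start site. Rel carried overlapping matches at -92 and -91. Nfkbia had a match at -29, Nfkbie at -106, Tnfaip2 at -24, and Tnfaip3 at -125 and -12. No match was found in the window of Ikbke. The interferon-response core GAAANNGAA was found once, in Nfkbia, against 8.56% of all windows, and the STAT6 site once in Tnfaip3 against 6.95%. These matches describe letters only, and binding was not measured.

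Changes were tested with edgeR's quasi-likelihood test over all genes, and called where the p-value after Benjamini-Hochberg adjustment was below 0.05. In E1 versus CN, 9 of the 10 members were called higher and Nfkb1 was not called, while 9.19% of all 15913 genes tested were called higher and 8.08% lower. The median log2 fold change was 1.25 over the members and -0.01 over all genes. In E2 versus E0, all 10 members were called higher, against 17.0% of all genes called higher and 18.5% lower. The median there was 1.82 over the members and -0.02 over all genes. Because the members were chosen with earlier results of these data known, these counts describe them and do not test them as a set. The count over all genes, 5655 in E2 versus E0, was 3562 without E0 replicate 1, 3567 without E2 replicate 1 and 3334 without E2 replicate 2. The count of lower genes in E1 versus CN, 1286, was 743 without CN replicate 1. Scaling by library totals alone gave 1190 genes higher and 1891 lower in E1 versus CN, in place of 1463 and 1286. With a replicate block, 5520 genes were called in E1 versus CN in place of 2749, and 8514 in E2 versus E0 in place of 5655. The shares over all genes thus depend on the model, while 9 and 10 members were called higher with the block too. In the plot of values by library, the stimulated groups stand above their controls for every member except Nfkb1 in E1. The share of all genes whose libraries lie apart, here or in the comparisons below, was not counted, so such separation is only described.

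**Figure D1:**
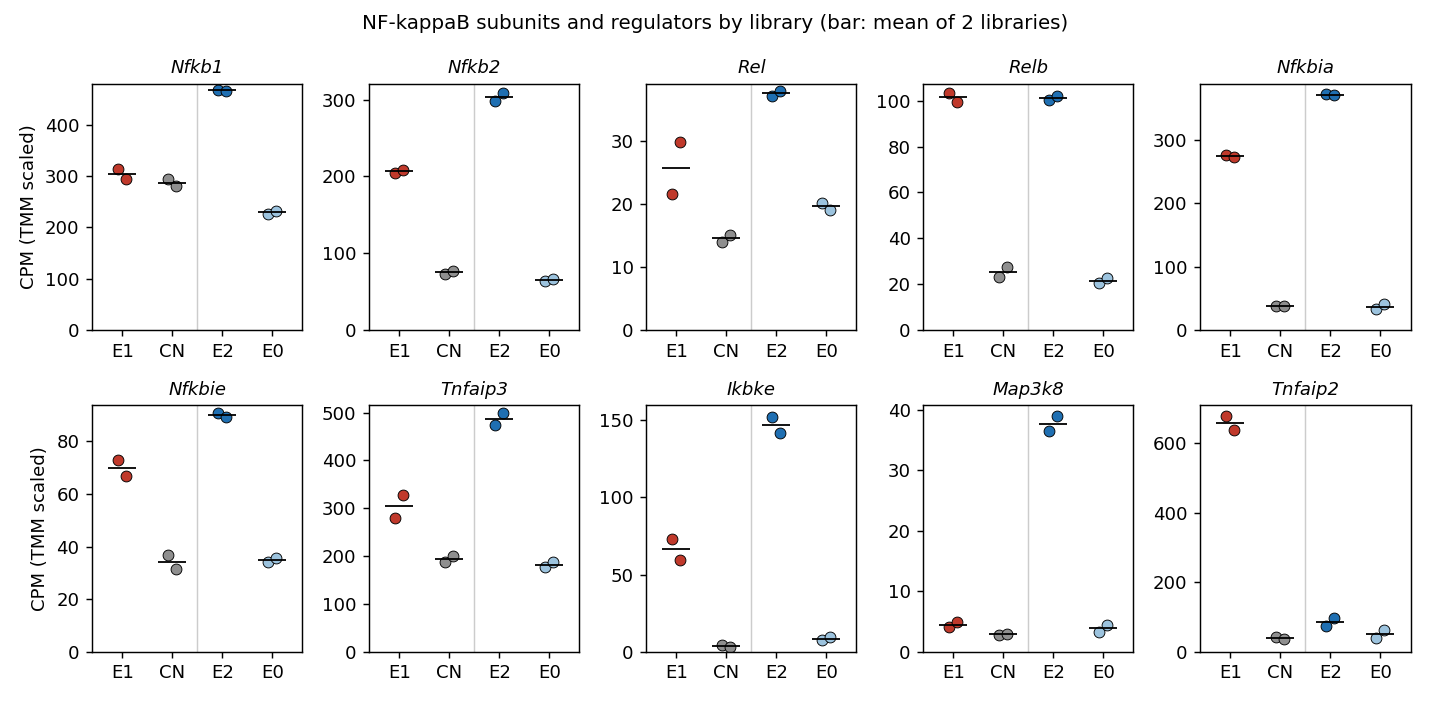
Level of each of the 10 genes in CPM (TMM scaled) in every library, with the groups E1 and CN of the first experiment left of the line and E2 and E0 of the second right of it; points are libraries and bars are means of 2. Map3k8 reached 36.5 to 38.9 CPM in E2 alone, and Tnfaip2 reached 639 to 676 CPM in E1 alone.

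The subunit genes responded to IFN-γ and TNF-α by different amounts, and differences between genes were not tested. Nfkb2 and Relb, which encode the partners of the non-canonical branch, rose in E1, and Rel rose less. Nfkb1 (ENSMUSG00000028163, chromosome 3, 135584655 to 135691547) stood at 314 and 294.1 CPM in E1, against 294.2 and 280.3 CPM in CN. The libraries overlapped, and the log2 fold change of 0.08 ± 0.07 (SE) was not called (adjusted p = 0.499). Its approximate 95% interval, from a fold of 0.947 to 1.18, bounds the change that these libraries allow. In the second experiment Nfkb1 had 468 and 466 CPM in E2, against 227 and 232 CPM in E0. It rose 2.04-fold there, by 1.03 ± 0.07 (adjusted p = 3.03e-05).

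Nfkb2 (ENSMUSG00000025225, chromosome 19, 46304320 to 46312385) had 204 and 209 CPM in E1, against 73.3 and 77.3 CPM in CN. It had 298 and 309 CPM in E2, against 63.1 and 66.0 CPM in E0. Its libraries lay apart in both experiments, and replicates differed little. Nfkb2 rose 2.74-fold in E1 (1.46 ± 0.06, adjusted p = 1.28e-06) and 4.70-fold in E2 (2.23 ± 0.06, adjusted p = 5.59e-07). It overlaps Psd on the opposite strand. The counting's strand setting is not given in the sources used here, and Psd moved alike, with 14.4 ± 1.05 CPM in E1 and 6.34 ± 0.0941 CPM in CN, and 20.7 ± 0.765 CPM in E2 and 6.73 ± 0.147 CPM in E0 (SD, n = 2 each).

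Relb (ENSMUSG00000002983, chromosome 7, 19606217 to 19629438) had 103 and 99.6 CPM in E1, against 23.2 and 27.4 CPM in CN. It had 100.3 and 102 CPM in E2, against 20.6 and 22.6 CPM in E0. The E1 and E2 libraries overlapped, and those of the controls lay close together without overlap. The rise was 4.01-fold in E1 (2.00 ± 0.09, adjusted p = 3.17e-06) and 4.69-fold in E2 (2.23 ± 0.10, adjusted p = 3.07e-06). Rel (ENSMUSG00000020275, chromosome 11, 23736847 to 23770970), which encodes c-Rel, was the lowest of the subunit genes per kilobase of transcript. It had 21.5 and 29.7 CPM in E1, against 13.9 and 15.1 CPM in CN, and 37.1 and 37.9 CPM in E2, against 20.2 and 19.1 CPM in E0. No libraries overlapped within an experiment. Rel rose 1.77-fold in E1 (0.82 ± 0.14, adjusted p = 0.00514) and 1.91-fold in E2 (0.93 ± 0.14, adjusted p = 0.0017).

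The make-up of the subunit transcripts was compared per length, as CPM per kilobase of the longest coding transcript, with Rela added as the remaining subunit gene. Nfkb2 made up 23.6% ± 0.601 of the 5 subunit transcripts in E1 and 13.6% ± 0.478 in CN, and 28.7% ± 0.386 in E2 and 13.8% ± 0.0065 in E0 (SD, n = 2 each). Relb made up 20.2% ± 0.335 in E1 and 7.95% ± 0.929 in CN, and 16.7% ± 0.00891 in E2 and 8.005% ± 0.275 in E0. The shares of both non-canonical partners were thus larger in the stimulated groups by many times the spread between replicates. Nfkb1 made up 32.4% ± 1.16 in E1 and 48.4% ± 1.76 in CN, and 41.3% ± 0.593 in E2 and 45.7% ± 0.696 in E0. Rela made up 22.4% ± 0.535 in E1 and 28.7% ± 0.278 in CN, and 11.5% ± 0.194 in E2 and 30.4% ± 0.57 in E0. The share of Rel stayed between 1.26% and 2.27% in all 8 libraries. The summed level of the 5 genes was 228 ± 2.2 CPM per kilobase in E1 and 144 ± 0.3 in CN, and 275 ± 2.95 in E2 and 122 ± 3.77 in E0. These shares depend on the length used. With the union of all annotated exons Nfkb1 made up 17.4% in E1 and 27.95% in CN, and Rela 31.1% in E1 and 42.9% in CN, so that the order of these genes turned, while the directions between groups stayed.

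**Figure D2:**
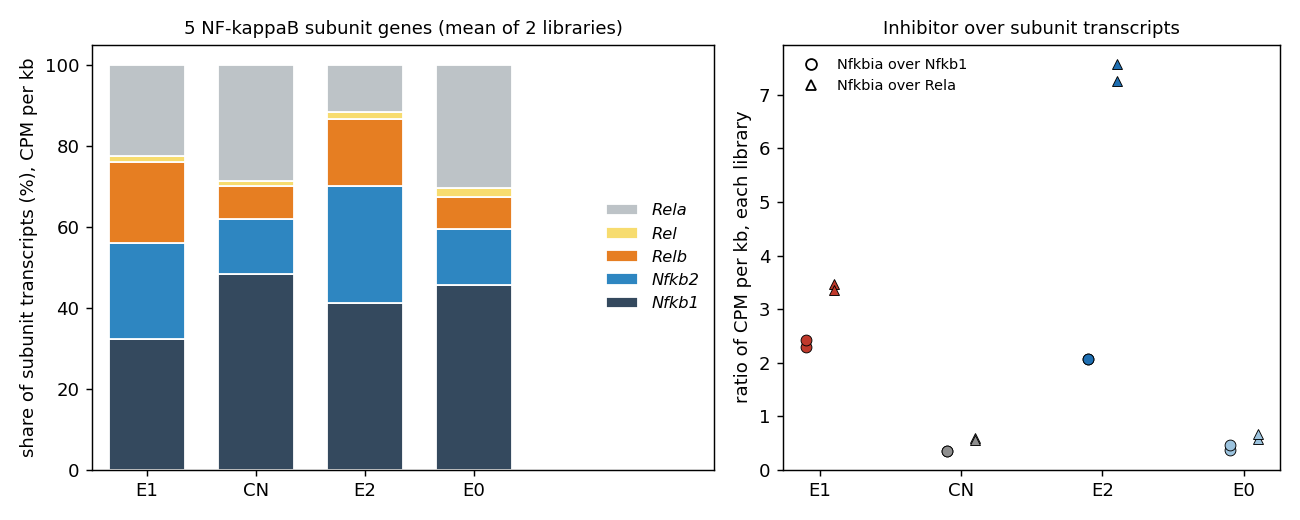
Left, share in percent of the 5 subunit transcripts, as CPM per kilobase of the longest coding transcript, mean of 2 libraries in each group; right, ratio of Nfkbia to Nfkb1 (circles) and to Rela (triangles) in each library on the same scale. Nfkb2 and Relb take larger shares in E1 and E2 than in CN and E0, and the Nfkbia over Rela ratio reaches 7.26 to 7.58 in E2.

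Transcripts of the inhibitors rose in both stimulated groups, with Nfkbia ahead of the others. Nfkbia (ENSMUSG00000021025, chromosome 12, 55489410 to 55492647), which encodes IkB-alpha, the inhibitor that NF-kappaB resynthesises to end its own activity, had 276 and 273 CPM in E1, against 38.5 and 37.0 CPM in CN. It had 372 and 371 CPM in E2, against 32.6 and 40.7 CPM in E0. Replicates differed little in the stimulated groups, and E0 replicate 1 was the lowest of the 8 libraries. Nfkbia rose 7.28-fold in E1 (2.86 ± 0.10, adjusted p = 6.63e-07) and 10.1-fold in E2 (3.34 ± 0.10, adjusted p = 7.77e-07). The promoter stretch of Nfkbia printed above holds its kappaB match at -29. Those of Nfkb2 (-11), Tnfaip3 (-12) and Tnfaip2 (-24) hold matches nearer to the start site. Whether these matches bear on the size of a rise was not tested.

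Nfkbie (ENSMUSG00000023947, chromosome 17, 45555703 to 45563169), which encodes IkB-epsilon, an inhibitor of the same family, had 73.1 and 66.8 CPM in E1, against 36.9 and 31.3 CPM in CN. It had 90.7 and 89.3 CPM in E2, against 34.2 and 35.5 CPM in E0. The controls overlapped, and both stimulated groups stood clear of them. The rise was 2.05-fold in E1 (1.04 ± 0.09, adjusted p = 0.000134) and 2.58-fold in E2 (1.37 ± 0.09, adjusted p = 3.11e-05). Tnfaip3 (ENSMUSG00000019850, chromosome 10, 19000910 to 19015657) encodes A20, a ubiquitin-editing enzyme that shuts off signalling upstream of the IkB kinases. It had 279 and 328 CPM in E1, against 187 and 199 CPM in CN, and 474 and 499 CPM in E2, against 178 and 187 CPM in E0. Unlike Nfkbia, Tnfaip3 was already abundant in both controls. It rose 1.57-fold in E1 (0.65 ± 0.09, adjusted p = 0.00153) and 2.67-fold in E2 (1.42 ± 0.09, adjusted p = 2.53e-05).

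Per kilobase of transcript, the order of the 2 inhibitors Nfkbia and Tnfaip3 turned between control and stimulated cells. Nfkbia stood at 174 ± 1.38 CPM per kilobase in E1 and 23.9 ± 0.671 in CN, and at 235 ± 0.583 in E2 and 23.2 ± 3.63 in E0 (SD, n = 2 each). Tnfaip3 stood at 68.7 ± 7.79 in E1 and 43.6 ± 2.01 in CN, and at 110.0 ± 3.98 in E2 and 41.2 ± 1.43 in E0. The ratio of Tnfaip3 to Nfkbia was 0.394 ± 0.0478 in E1 and 1.83 ± 0.135 in CN, and 0.468 ± 0.0181 in E2 and 1.79 ± 0.218 in E0. With the union of exons as the length, Tnfaip3 in the controls was close to Nfkbia (26.7 against 23.4 CPM per kilobase in CN, and 25.2 against 22.7 in E0). The ratio of Nfkbia to Nfkb1 was 2.36 ± 0.0884 in E1 and 0.343 ± 0.0021 in CN, and 2.07 ± 0.00246 in E2 and 0.417 ± 0.0587 in E0. With the union of exons it was 6.78 ± 0.254 in E1 and 0.984 ± 0.00604 in CN, and 5.96 ± 0.00707 in E2 and 1.196 ± 0.168 in E0, so its size depends on the length used. The ratio of Nfkbia to Rela was 3.41 ± 0.0758 in E1 and 0.579 ± 0.0231 in CN, and 7.42 ± 0.222 in E2 and 0.625 ± 0.0669 in E0. In every stimulated library both ratios of Nfkbia to a subunit transcript, on either length, exceeded those of every control library.

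Both kinase genes were low in control cells, at 1.19 (Ikbke) and 1.11 (Map3k8) CPM per kilobase of transcript in CN and 2.60 and 1.504 in E0, and they rose by different amounts. Ikbke (ENSMUSG00000042349, chromosome 1, 131254343 to 131279606) encodes IKK-epsilon, a relative of TBK1 that acts in interferon induction. It had 73.4 and 59.4 CPM in E1, against 4.44 and 3.27 CPM in CN, and 152 and 142 CPM in E2, against 7.56 and 9.31 CPM in E0. The groups lay far apart in both experiments. Ikbke rose 17.2-fold in E1 (4.10 ± 0.18, adjusted p = 2.13e-06) and 17.4-fold in E2 (4.12 ± 0.18, adjusted p = 3.43e-06). In E1 that was within the standard error of the rise of Tnfaip2. The antisense genes Gm28913 and Gm28914 overlap it, and without the strand setting their reads cannot be told apart from its own. Gm28913 had 5.55 ± 0.544 CPM in E1 and 0.222 ± 0.0589 CPM in CN, and 12.9 ± 0.16 CPM in E2 and 0.684 ± 0.147 CPM in E0.

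Map3k8 (ENSMUSG00000024235) encodes TPL2, a kinase that p105 holds inactive and that starts the MEK and ERK cascade when released. It had 36.5 and 38.9 CPM in E2, against 3.25 and 4.48 CPM in E0. In the first experiment it had 4.06 and 4.89 CPM in E1, against 2.78 and 2.94 CPM in CN. A high level was thus seen in the E2 libraries alone. Map3k8 rose 9.72-fold in E2 (3.28 ± 0.17, adjusted p = 8.83e-06). The rise in E1 was 1.56-fold (0.64 ± 0.16, adjusted p = 0.0305), and it lost its call in 8 of 15 alternative settings, with adjusted p from 0.00289 to 0.129. They were scaling by library totals, limma-voom, the fit of the 4 libraries alone, and leaving out CN replicate 1, CN replicate 2, E1 replicate 2, E2 replicate 1 or E2 replicate 2. The largest of these p-values, 0.129, was found without CN replicate 1.

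Tnfaip2 (ENSMUSG00000021281, chromosome 12, 111442469 to 111455018) encodes a TNF-induced protein related to exocyst subunits, and it is not itself a subunit or an inhibitor. It had 676 and 639 CPM in E1, against 40.9 and 37.4 CPM in CN. In the second experiment it had 72.6 and 96.0 CPM in E2, against 40.1 and 61.9 CPM in E0. The first pair of groups lay far apart, while the second lay close and was uneven between replicates. Tnfaip2 rose 16.8-fold in E1 (4.07 ± 0.22, adjusted p = 6.63e-06) and 1.65-fold in E2 (0.72 ± 0.20, adjusted p = 0.0219). The call in E2 was lost without E0 replicate 1 (0.45, adjusted p = 0.0937) and without E2 replicate 2 (0.51, adjusted p = 0.154). Per kilobase of transcript Tnfaip2 in E1 (175 ± 7.04 CPM per kilobase, SD, n = 2) stood level with Nfkbia (174 ± 1.38), while in E2 it stood at 22.4 ± 4.4, with Nfkbia at 235 ± 0.583. With the union of exons Tnfaip2 stood at 132 and Nfkbia at 171 in E1, so the level match depends on the length used.

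Whether a member responded differently in the 2 experiments was tested as a difference of responses. This is the log2 fold change of E2 versus E0 minus that of E1 versus CN. Stimulus, experiment and control medium cannot be told apart in this difference. Of the 10 members, 5 were called higher and 1 lower, against 11.3% of all genes called higher and 14.0% lower (25.2% in all). The count of higher genes, 1798, was 1177 without E2 replicate 1 and 1193 without E2 replicate 2. Map3k8 rose more in E2 versus E0 than in E1 versus CN, by 2.64 ± 0.23 (adjusted p = 0.000127). So did Nfkb1 by 0.95 ± 0.10 (adjusted p = 0.000316), Nfkb2 by 0.78 ± 0.08 (adjusted p = 0.00034) and Tnfaip3 by 0.76 ± 0.13 (adjusted p = 0.00363). Tnfaip2 had a difference of -3.35 ± 0.28 (adjusted p = 0.000104), which is a smaller rise in E2 versus E0. For Nfkbia the difference was 0.48 ± 0.14 (adjusted p = 0.035). This call was lost without each library but E0 replicate 2, with adjusted p from 0.0569 to 0.115. For Ikbke the difference was 0.02 ± 0.24, with an approximate 95% interval from -0.53 to 0.56. Rel (0.11, interval -0.35 to 0.58), Relb (0.23, interval -0.07 to 0.52) and Nfkbie (0.33, interval 0.03 to 0.63, adjusted p = 0.103) were not called either. With a replicate block Nfkbie was called (0.33, adjusted p = 0.00608). Without CN replicate 2 its difference was 0.45. These intervals hold ratios of the 2 folds up to 1.47 for Ikbke and 1.55 for Nfkbie, so equal responses are not shown.

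**Figure D3:**
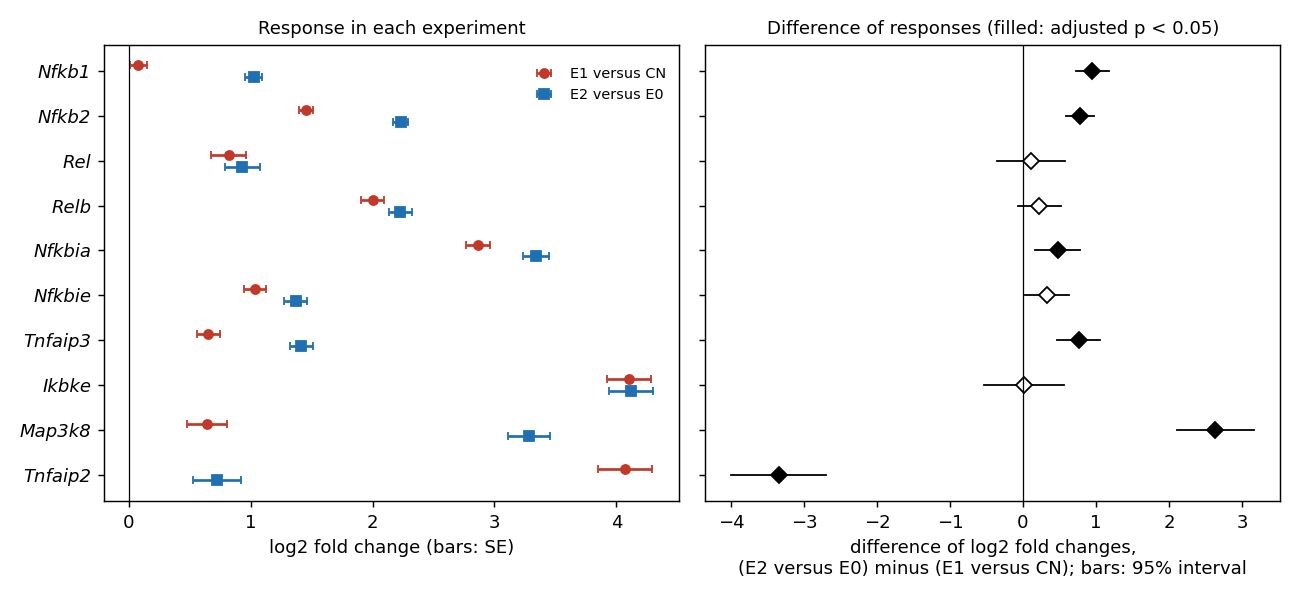
Left, log2 fold change of each gene in E1 versus CN (circles) and E2 versus E0 (squares) with standard errors; right, difference of the 2 responses with approximate 95% intervals, filled where the adjusted p was below 0.05. Ikbke has nearly the same change in both, Map3k8 changes mostly in E2, and Tnfaip2 mostly in E1.

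Across the 4 groups, E2 had the highest mean of 8 members, and E1 that of Relb and Tnfaip2. The E2 and E1 libraries of Relb overlapped. Groups of different experiments cannot be told apart from the experiments themselves, so these orders are descriptive. The lowest group was E0 for Nfkb1, Nfkb2, Relb, Nfkbia and Tnfaip3, and CN for the other 5. The libraries of the 2 control groups overlapped for Nfkbia, Nfkbie and Tnfaip2. Of the members, 3 were called between E0 and CN, while 25.4% of all genes were called (13.5% higher and 11.9% lower). That count, 4038 genes, was 2321 without CN replicate 2, 2427 without E0 replicate 1 and 2235 without E0 replicate 2. The called members were Ikbke (1.13 ± 0.17, adjusted p = 0.00258), Nfkb1 (-0.33 ± 0.07, adjusted p = 0.0115) and Nfkb2 (-0.22 ± 0.06, adjusted p = 0.027). Between E2 and E1, 8 members were called higher, Tnfaip2 lower (-2.96 ± 0.21, adjusted p = 1.22e-05) and Relb not (-0.01 ± 0.09, adjusted p = 0.967), while 53.9% of all genes were called (27.3% higher and 26.6% lower). The highest group mean exceeded the lowest by 38.2-fold for Ikbke, 16.8-fold for Tnfaip2, 13.2-fold for Map3k8, 10.1-fold for Nfkbia and 2.04-fold for Nfkb1.

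The members also differed in how closely they followed each other over the 8 libraries. As a description over points that share libraries and depth, Pearson's r of log2 CPM was 0.991 between Relb and Nfkbia, 0.99 between Nfkb2 and Nfkbia, and 0.977 between Nfkb2 and Relb. It was 0.0301 between Map3k8 and Tnfaip2 and 0.15 between Nfkb1 and Tnfaip2. Among the 9171 genes with at least 10 CPM in their highest group, likeness was measured as the root mean square difference of mean-centred log2 CPM over the 8 libraries. Nfkb2 was among the 3 genes nearest to Relb (0.245 log2 units), after Slc2a6 (0.206) and Cd22 (0.237). Next to Nfkbia stood AA467197 (0.333), Ralgds and Il2rg, the gene of the common cytokine receptor chain. Nfkb2 had Rab20 (0.144), Nadk and Aoah beside it. The nearest to Nfkb1 were Med27 (0.0678), the phosphatase gene Ptpn1 and Prpf31, and those nearest to Rel were St13, Fchsd2 and Snx8. The nearest to Tnfaip3 were Nab1 (0.0725), Chka and Lpp, and Nfkbie had Gm15675, Gm15674 and Nab1. Map3k8 stood next to the receptor gene Tlr9 (0.225), Gm14023 and Irak3. Ikbke stood next to its antisense gene Gm28913 (0.074), Lacc1 and the adaptor gene Traf1 (0.306). Tnfaip2 stood next to Ccrl2 (0.178) and the interferon-stimulated genes Oas1a (0.182) and Usp18 (0.276).

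Other genes of the pathway were described from 6 lists by role, of which 68 of 69 genes were in the table. In E1 versus CN 40 were called higher and 4 lower (median 0.52), and in E2 versus E0 38 were called higher and 3 lower (median 0.45). Of all 15913 genes tested, 9.19% were called higher and 8.08% lower in E1 versus CN. In E2 versus E0 17.0% were called higher and 18.5% lower. The counts of each list below stand against the same shares. Of the 5 remaining subunit and IkB genes, 5 were called higher in E1, and 4 higher and 1 lower in E2. Rela, the main activating subunit, had 139 CPM in E1 and 112 CPM in CN (0.30 ± 0.06, adjusted p = 0.00868), and fell in E2, with 86.2 ± 2.37 CPM in E2 and 100.6 ± 5 CPM in E0 (-0.22 ± 0.06, adjusted p = 0.0197). The 2 responses of Rela differed by -0.53 ± 0.08 (adjusted p = 0.00261). Nfkbiz, which encodes a nuclear IkB protein, had 32.1 ± 5.96 CPM in E1 and 15.7 ± 2.89 CPM in CN, and 129.8 ± 0.0276 CPM in E2 and 13.3 ± 1.23 CPM in E0, a rise of 1.03 ± 0.16 and of 3.28 ± 0.17. Bcl3, a nuclear partner of p50 and p52, rose by 1.28 and 2.13, and Nfkbib, which encodes IkB-beta, by 0.90 and 0.71.

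Among 12 other genes listed as feedback regulators, 9 were called higher in E1 (median 0.60) and 5 in E2 (median 0.15). The list also holds Rnf31, Sharpin and Rbck1, which encode a ligase of linear ubiquitin chains that promotes signalling and is not an inhibitor. They were among the 9 in E1 and were not called in E2. The strongest rises in E2 were of Zc3h12a, which encodes the RNA-degrading enzyme regnase-1, with 167.7 ± 4.64 CPM in E2 and 19.2 ± 1.14 CPM in E0 (3.12 ± 0.08, adjusted p = 5.59e-07), and of Tnip1, a partner of A20, with 234 ± 5.35 CPM in E2 and 54.2 ± 3.27 CPM in E0 (2.11 ± 0.11, adjusted p = 8.66e-06). In E1 the largest were of Tnip3 (2.42 ± 0.25), N4bp1 (0.81 ± 0.08) and Rnf31 (0.80 ± 0.06), a ligase of linear ubiquitin chains. The kinase list held 12 other genes, among them Ikbkg, Tab1, Tab2, Tab3 and Tank, which encode partners of kinases. Of the 12, 1 was called higher in E1 (8.33%, near the 9.19% of all genes) and 2 in E2 (16.7%, near 17.0%). Kinase genes of the adaptor list are not counted here. Genes of the IkB kinase complex, Chuk (0.10 and 0.24), Ikbkb (0.02 and 0.19) and Ikbkg (-0.15 and -0.17), were not called in E1 or in E2. Nor was Map3k14 (0.05 and -0.11), which encodes the NF-kappaB-inducing kinase. Tbk1, the relative of Ikbke, had 123 ± 3.46 CPM in E1 and 79.2 ± 1.45 CPM in CN (0.64 ± 0.06, adjusted p = 0.000134), and was not called in E2 (-0.03 ± 0.06, adjusted p = 0.707).

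Of 10 receptor genes, 5 were called higher and 3 lower in E1, and 5 higher in E2. Tnfrsf1a, which encodes a receptor for TNF, had 75.8 ± 4.23 CPM in E1 and 37.0 ± 0.0293 CPM in CN (1.04 ± 0.18, adjusted p = 0.00457). Tnfrsf1b, another TNF receptor gene, had 176 ± 5.63 CPM in E1 and 121 ± 11.5 CPM in CN (0.54 ± 0.14, adjusted p = 0.0308). Cd40 had 25.3 ± 3.88 CPM in E1 and 0.288 ± 0.204 CPM in CN, and 4.57 ± 0.696 CPM in E2 and 1.13 ± 0.577 CPM in E0. It rose by 6.42 ± 0.48 in E1 and by 1.99 ± 0.40 in E2, from low control levels that make these folds uncertain. Il1rl1, the receptor for IL-33, had 478 ± 47.9 CPM in E1 and 672 ± 23.1 CPM in CN, so it fell by 0.49 ± 0.09 (adjusted p = 0.0055), and rose by 0.51 ± 0.09 in E2 (adjusted p = 0.00283). Its responses differed by 1.00 ± 0.12 (adjusted p = 0.000767). Of 14 genes in the adaptor list, 8 were called higher and 1 lower in E1, and 7 higher and 2 lower in E2. This list also holds the kinase genes Ripk1, Irak1, Irak2 and Irak4. Ripk1 was called higher in E1 only, Irak2 higher in both, and Irak1 lower in E2 only. Irak4 was called in neither. Traf1 had 33.3 ± 2.66 CPM in E1 and 3.16 ± 0.438 CPM in CN, and 73.5 ± 3.63 CPM in E2 and 5.44 ± 0.729 CPM in E0, a rise of 3.40 ± 0.14 and of 3.75 ± 0.14. Irak3, an inhibitor of signalling from the IL-1 receptor family, had 492 ± 15.1 CPM in E2 and 45.1 ± 0.138 CPM in E0 (3.45 ± 0.09, adjusted p = 5.1e-07), and rose by 0.81 ± 0.08 in E1.

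Of 15 measured target genes, 12 were called higher in E1 (median 1.05) and all 15 in E2 (median 1.97). Ccl5 and Ptgs2 had the largest rises in E1 (6.19 ± 0.30 and 4.40 ± 0.33), followed by Il6 (3.63 ± 0.25). Il6, Ccl3 and Tnf had the largest in E2 (5.62 ± 0.27, 4.17 ± 0.13 and 4.04 ± 0.38). The difference of responses was called higher for 6 targets and lower for 6, against 11.3% of all genes called higher and 14.0% lower. Over all 68 genes of the lists it was called higher for 17 and lower for 21 (median -0.03). The plot of the pathway by role shows the genes of the kinase list close to 0 and the targets spread widely to the right.

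**Figure D4:**
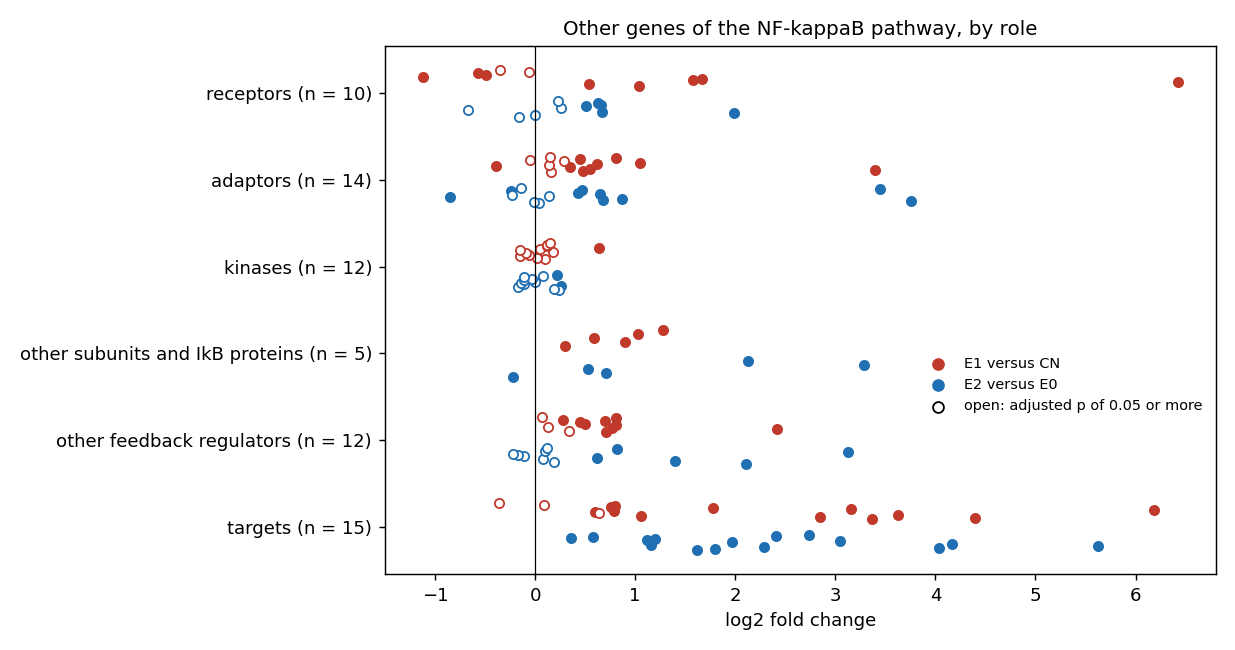
Log2 fold change of 68 other genes of the pathway in E1 versus CN (upper points of each row) and E2 versus E0 (lower points), grouped by role, filled where the adjusted p was below 0.05. The genes of the kinase list lie between -0.17 and 0.64, and all 15 targets are above 0 in E2.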

How the data were processed

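Stranded mRNA libraries were sequenced from 8 eosinophil cultures. Per the labels, the deposited values are raw read counts per Ensembl gene, made with STAR and featureCounts on mm10, per the submitters' processing notes. Versions, annotation, strand setting and filters: not given in the sources used here. A row with no gene name equalled the column totals (100% of the counts) and was left out. Of the 15917 genes, 15730 matched a symbol.

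edgeR 4.0.16 (R 4.3.3) was run with filterByExpr (4 genes removed), TMM scaling, a group-means design on all 8 libraries, leaving 4 residual degrees of freedom, and the two-sided quasi-likelihood test, adjusted over 15913 genes. Standard errors were derived from the F statistic. P-values measure the spread between these libraries, which includes a difference of sex. A count of 0 would allow 3 counts, 0.0316 to 0.0493 CPM, for counting error only, since PCR reads without molecular identifiers are not independent molecules. Alternatives were DESeq2 1.42.0 size factors and test, limma-voom (limma 3.58.1), library totals, no filter, a replicate block, the 4 libraries of a contrast alone and leaving out each library. The fit was also run on simulated counts that held no difference of sex, so that run does not bear on this feature. Its outcome is not given here. Members and lists were chosen with earlier results of these data known. Other pathway genes named were up to 3 called each way per list at 5 CPM or more, and the 3 genes nearest to each member. Some named receptors, kinases and regulators outside this rule were chosen after their values were seen, for their role. Promoter windows were searched with the consensus of each motif on both strands, and 1 motif is not reported here.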

Additional observations from a re-analysis of the deposited data

Results flagged for a closer look

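In 6 members the responses of the 2 experiments differed by the test of the difference itself, (E2 versus E0) minus (E1 versus CN) on the log2 scale, while 25.2% of all genes tested were called by it (11.3% higher and 14.0% lower). The difference was 2.64 for Map3k8, with a 9.72-fold rise in E2 and 1.56-fold in E1. It was 0.95 for Nfkb1, which rose 2.04-fold in E2 and was not called in E1. Nfkb2 differed by 0.78, Tnfaip3 by 0.76 and Nfkbia by 0.48. The call of Nfkbia was lost without each library but E0 replicate 2. Tnfaip2 differed by -3.35, with a 1.65-fold rise in E2 and 16.8-fold in E1. Each stimulus was given in its own experiment and against its own control, E0 with IL-5 and CN without, so that stimulus, experiment and control medium cannot be told apart in these differences.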

How the results depend on the processing

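The 10 members gave 150 values in E1 versus CN over 15 alternative settings, of which 141 kept their direction and their side of the threshold, and 148 of 150 did in E2 versus E0. For the difference of responses 126 of 140 values did. With a replicate block, E1 versus CN called 5520 genes (2786 higher and 2734 lower), E2 versus E0 called 8514 (4145 higher and 4369 lower), the difference of responses 6821 (3212 higher and 3609 lower) and E0 versus CN 6113. The labels do not tie replicate numbers together, although sex-linked transcripts put replicate 1 apart from replicate 2 alike in all 4 groups. Deviations of same-numbered libraries from their group means correlated at 0.499 (E1 and CN) and 0.586 (E2 and E0), and at 0.115 to 0.303 in the other pairs. The block added a call for the difference of Nfkbie (0.33, adjusted p = 0.00608), as did leaving out CN replicate 2 (0.45, adjusted p = 0.0322). Fitting the 4 libraries of E1 versus CN alone called 775 genes lower. Leaving out 1 library gave 743 to 1124 genes lower in E1 versus CN, 3334 to 5929 genes in E2 versus E0 (1569 to 2858 higher and 1765 to 3079 lower), 1177 to 1753 higher for the difference of responses and 2235 to 4274 in E0 versus CN. Nfkb1 in E1 versus CN was -0.0114 with library totals alone (adjusted p = 0.937). Leaving out 1 library moved the difference of Rel between -0.10 and 0.37 and that of Ikbke between -0.24 and 0.22. With all 4 groups in 2 libraries each, the spread of a group rests on 1 pair. The causes of these shifts were not tested.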

Other observations

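The ratio of Ikbke to its relative Tbk1, per kilobase of the longest coding transcript, was 0.501 ± 0.0605 in E1 and 0.0452 ± 0.00889 in CN, and 1.72 ± 0.144 in E2 and 0.0966 ± 0.0134 in E0 (SD, n = 2 each). With the union of exons as the length it was 0.234 ± 0.0282 in E1 and 0.0211 ± 0.00414 in CN, and 0.804 ± 0.0673 in E2 and 0.045 ± 0.00626 in E0, so which of the 2 genes was higher in E2 depends on the length used. The ratio of Map3k8 to Nfkb1, whose p105 product holds TPL2 inactive, was 0.129 ± 0.00639 in E2 and 0.027 ± 0.00563 in E0, and 0.0237 ± 0.00418 in E1 and 0.016 ± 0.00118 in CN. With the union of exons it was 0.216 ± 0.0107 in E2 and 0.0451 ± 0.00941 in E0, and 0.0396 ± 0.00699 in E1 and 0.0267 ± 0.00198 in CN. Relb to Nfkb2 was 0.856 ± 0.036 in E1 and 0.584 ± 0.0478 in CN, and 0.58 ± 0.00749 in E2 and 0.581 ± 0.0197 in E0. These ratios compare transcripts, and protein was not measured.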
